A study of Mus musculus with 6 samples.

Results

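The mitosis and spindle genes described here are 43 genes chosen by name for their known work in cell division, and all 43 were found among the 49523 gene symbols of the count table. They were measured in EO771 cells, a mouse mammary carcinoma line, by RNA sequencing of 3 libraries labelled as cancer stem cells (CSC) and 3 labelled as cells that are not (non-CSC). Both groups are the same cell line, and no treatment, genotype or sorting marker is named in the labels, and no way of isolating the CSC is described. Whether replicates were grown as separate cultures is not stated, and every p-value therefore rests on a spread among libraries that could be technical. The study asked which genes differ in expression between CSC and non-CSC.

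Cell division is driven by cyclin-dependent kinase 1, which is switched on by cyclins A and B and is followed by the Polo-like and Aurora kinases. Condensed chromosomes are attached through their kinetochores to a spindle of microtubules built and moved by kinesin motors, and a checkpoint holds back the anaphase-promoting complex until every kinetochore is attached. Securin and cyclin B are then destroyed, sister chromatids part, and a contractile ring divides the cell. Most of these genes are transcribed in a wave before mitosis by the MYB-MuvB and FOXM1 factors, and their messenger RNA is widely used as a readout of proliferation in tumour cells.

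Library totals ranged from 27099879 to 35971131 counts, and a member had between 353 and 32792 counts in a library. Between replicates, chi-square over its degrees of freedom was 3.21 to 7.30, so no 2 libraries were alike within sampling noise. Of 6 markers of the carcinoma line, 2 were higher in CSC, 2 were lower and 2 were not called. In CPM (counts scaled to library size), Krt7 had 501 in non-CSC and 1057 in CSC, Krt8 had 715 and 863, and Krt18 had 1255 and 1267. Vim had 1271 CPM in non-CSC and 867 CPM in CSC, and the epithelial marker Epcam had 21.3 and 10.3 CPM. Cdh1 was under 1 CPM in both groups. Of 8 leukocyte markers, Cd3e and Adgre1 had 0 counts in every library, Ptprc had 1 to 6, and Itgam and Cd68 passed the count filter. Itgam was higher in CSC (0.741 CPM in non-CSC and 10.2 CPM in CSC) and Cd68 lower (25.4 and 17.8 CPM), so that these 2 genes together summed to 25.1 to 27.2 CPM in non-CSC and 27.2 to 28.8 CPM in CSC. Of 6 fibroblast markers, 3 passed the filter and their sum was 555 to 589 CPM in non-CSC and 1196 to 1243 CPM in CSC, nearly all of it Dcn; Lum had 0 counts in every library, and Col3a1 and Pdgfrb at most 5 and 6. Endothelial and erythroid markers reached at most 22 counts. The part of these markers in the results was not tested.

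Promoters of the members are shown first because most carry the same short sequences. In RefSeq windows of GRCm38.p6 that run from 250 bases before to 50 bases after a gene's start, 36 of the 43 members were matched, with 39 windows. The letters TTTGAA, and less often the letters TTCGAA, are forms of the cell cycle genes homology region, to which the MuvB complex binds, CCAAT is the box bound by NF-Y, and TTCCCGC is a core of the E2F site; each was searched on both strands. One of the homology region forms was present in 30 of the 39 windows (76.9%), against 19.2% of all 32851 windows and 14.5% of the 12903 windows of protein-coding genes tested. CCAAT was present in 30 (76.9%), against 37.4% and 38.1%, and both were present in 26 (66.7%), against 7.52% and 6.15%. TTCCCGC was in 0 of the 39 and in 4.6% and 8.11% of the others. Such matches are descriptions of letters in a window, not of bound sites. The 200 bases before the start are printed for 4 members that were lower in CSC and 3 that were higher, 5′ to 3′ on the gene's strand, with matches on either strand to a homology region form or to the NF-Y box in capitals. Ect2 (chr3:27153855-27154054, minus strand), Cdk1 (chr10:69352913-69353112, minus strand), Top2a (chr11:99024190-99024389, minus strand) and Kif11 (chr19:37376182-37376381, plus strand) are the lower ones. Bub3 (chr7:131560170-131560369, plus strand), Mad2l1 (chr6:66535021-66535220, plus strand) and Nuf2 (chr1:169531465-169531664, minus strand) are the higher ones.
Ect2: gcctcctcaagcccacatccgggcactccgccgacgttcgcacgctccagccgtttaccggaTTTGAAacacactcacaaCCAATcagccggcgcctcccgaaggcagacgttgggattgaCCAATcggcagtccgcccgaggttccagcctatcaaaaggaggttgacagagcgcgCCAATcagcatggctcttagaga
Cdk1: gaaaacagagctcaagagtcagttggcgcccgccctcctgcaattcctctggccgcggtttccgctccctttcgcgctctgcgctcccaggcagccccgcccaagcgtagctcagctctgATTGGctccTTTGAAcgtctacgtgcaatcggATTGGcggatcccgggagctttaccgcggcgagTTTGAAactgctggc
Top2a: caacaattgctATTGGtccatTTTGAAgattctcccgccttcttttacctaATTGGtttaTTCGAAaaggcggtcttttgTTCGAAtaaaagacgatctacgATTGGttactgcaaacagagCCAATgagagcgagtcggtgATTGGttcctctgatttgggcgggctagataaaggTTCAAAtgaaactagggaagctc
Kif11: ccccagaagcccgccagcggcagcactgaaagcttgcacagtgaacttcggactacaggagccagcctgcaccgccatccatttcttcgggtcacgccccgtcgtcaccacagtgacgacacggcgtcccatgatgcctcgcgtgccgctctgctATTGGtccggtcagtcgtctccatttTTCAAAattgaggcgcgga
Bub3: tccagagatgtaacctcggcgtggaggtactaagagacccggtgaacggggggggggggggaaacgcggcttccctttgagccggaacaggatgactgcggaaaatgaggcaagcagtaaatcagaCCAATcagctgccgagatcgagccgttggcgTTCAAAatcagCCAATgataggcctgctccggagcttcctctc
Mad2l1: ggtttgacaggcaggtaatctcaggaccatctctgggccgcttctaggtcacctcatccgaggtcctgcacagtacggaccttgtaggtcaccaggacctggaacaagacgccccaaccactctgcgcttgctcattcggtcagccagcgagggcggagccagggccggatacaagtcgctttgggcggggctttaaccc
Nuf2: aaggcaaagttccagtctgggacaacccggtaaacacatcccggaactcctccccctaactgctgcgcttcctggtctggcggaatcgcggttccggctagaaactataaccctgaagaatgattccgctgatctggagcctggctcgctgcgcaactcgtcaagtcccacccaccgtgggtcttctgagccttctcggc
The sequence shows TTTGAA read forward 15 bases before the start of Cdk1, and its reverse complement 19 bases before that of Kif11, 23 before that of Top2a and 43 before that of Bub3. From another annotated start of Bub3 the same letters lie 167 bases before. Mad2l1 and Nuf2 hold none of the searched letters in the window. The printed promoters do not stand for their direction. Of members not printed, Spc25 and Kif4, which were higher, hold TTTGAA and CCAAT, and Birc5 and Pttg1, which were lower, hold neither. A homology region form was in 22 of 26 windows of members that were lower in CSC (84.6%) and 4 of 7 windows of members that were higher (57.1%). The 26 windows belong to 24 members, with Ect2 and Prc1 counted more than once, and the 7 to 6, with Bub3 counted more than once. Every window of these repeated genes holds a homology region form, which raises both shares. The difference between the shares was not tested.

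Most of the mitosis genes were lower in CSC, by small amounts. All 43 passed the low-count filter, and in a fit across the 17630 genes tested (edgeR quasi-likelihood test, adjusted p under 0.05) 30 members were lower in CSC and 6 higher. That is 69.8% and 14.0% of the members, where 33.1% of all genes tested were called lower and 33.4% higher. The median log2 fold change of CSC over non-CSC was -0.23, beside 0.01 for all genes tested. No member changed 2-fold, the largest fall being 1.67-fold, and the median size of change was 0.30 on the log2 scale, beside 0.33 for all genes tested. The 3 CSC libraries lay wholly below the 3 non-CSC libraries for 28 members (34.3% of all genes tested did so) and wholly above them for 6 (35.0% of all genes tested). The 43 genes together made up 6109 to 6127 CPM in non-CSC and 5093 to 5105 CPM in CSC. In bulk RNA, fewer cells in division and less of each messenger per cell cannot be told apart.

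**Figure D1:**
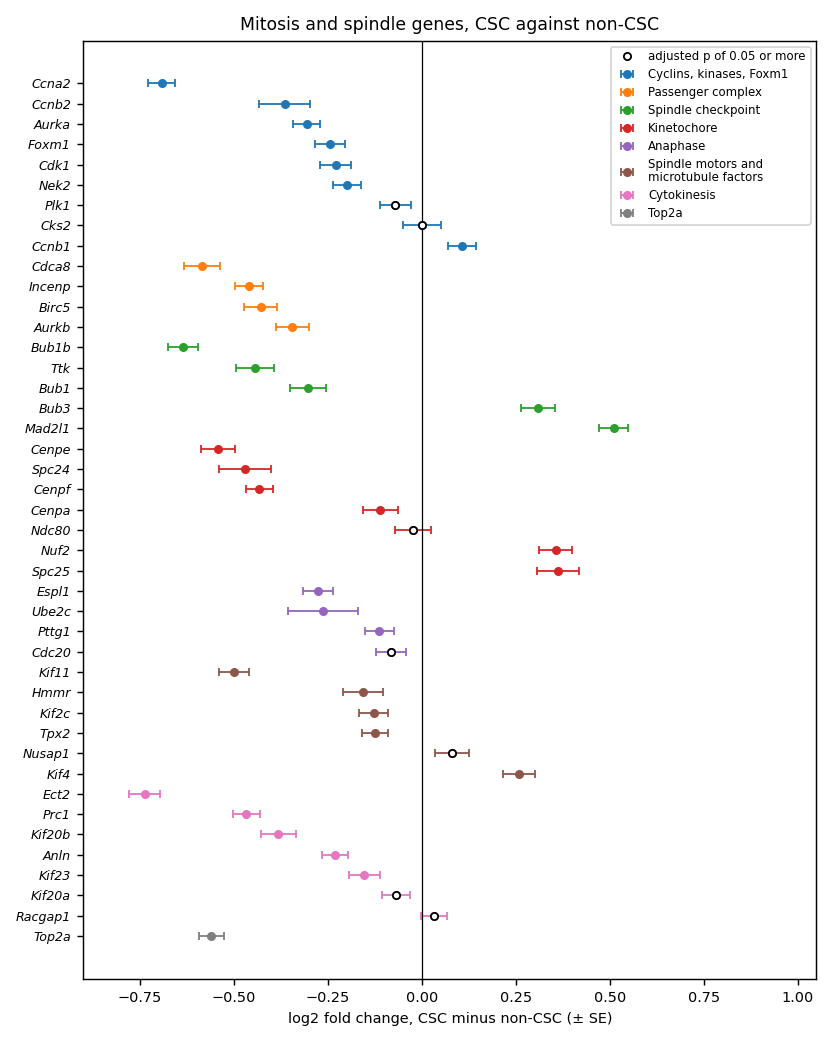
Log2 fold change of CSC over non-CSC for each of the 43 genes (points, edgeR, with standard error bars; 3 libraries per group), ordered by role, with open points for genes whose adjusted p was 0.05 or more. Points lie between -0.74 (Ect2) and 0.51 (Mad2l1), with 30 called lower, 6 called higher and 7 not called.

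Libraries of a group differed by more than counting noise. Non-CSC replicate 1 had the highest value of its group for 17 of the 43 genes and the lowest for 18, and CSC replicate 2 likewise for 17 and 18. The pairs with non-CSC replicate 1 had the largest chi-square values between replicates, 7.30 and 5.74 against 4.48 for the other non-CSC pair. Without non-CSC replicate 1, 30 members were called lower and 6 higher, and without CSC replicate 2 also 30 and 6. Standard errors of the log2 fold changes were 0.034 to 0.092, the largest being that of Ube2c. For 23 of the 30 lower genes and 5 of the 6 higher genes the call was the same under every alternative of scaling, filter, tool, replicate block and left-out library. With the neighbourhood offsets described below also required, 20 lower and 3 higher genes kept their call.

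**Figure D2:**
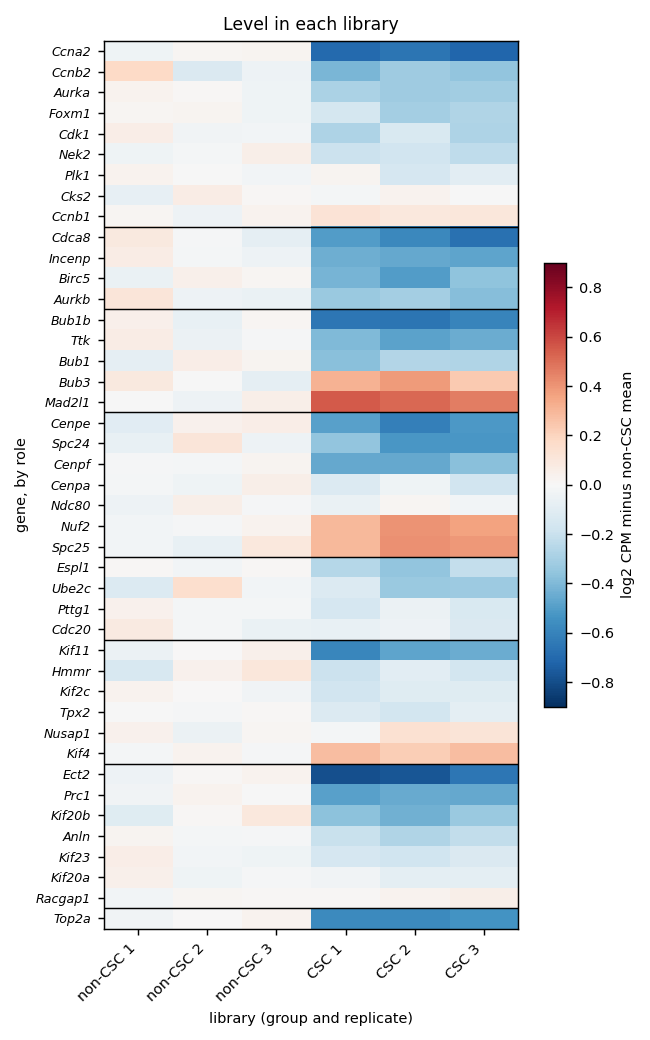
Level of each gene (rows, by role) in each of the 6 libraries (columns), as log2 CPM minus the mean of the 3 non-CSC libraries. Rows are blue in all 3 CSC libraries for the lower genes, such as Ect2 and Top2a, and red in all 3 for Mad2l1, Bub3, Nuf2, Spc25 and Kif4.

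Among the cyclins, mitotic kinases and their transcription factor, 6 of 9 genes were lower in CSC and 1 was higher, with a median of -0.23. Counts of this and the following role groups are to be read beside 33.1% lower and 33.4% higher among all genes tested. Ccna2 encodes cyclin A2, which drives S phase and entry into mitosis. Its level was 172, 179 and 180 CPM in non-CSC and 109, 112 and 108 CPM in CSC. The groups did not overlap, and the log2 fold change was -0.69 ± 0.036 (SE; edgeR adjusted p = 7.57e-14). Ccnb2, 1 of the pair of B-type cyclins that activate Cdk1, had 74.8, 60.3 and 64.1 CPM in non-CSC and 49.7, 53.1 and 51.8 CPM in CSC, a log2 fold change of -0.36 ± 0.067 (SE; edgeR adjusted p = 0.000296). Its non-CSC replicate 1 was the highest of the 6 libraries. Ccnb1, the other B-type cyclin, went the opposite way, with 131, 126 and 133 CPM in non-CSC and 142, 139 and 140 CPM in CSC. Its groups did not overlap, but the difference of 0.11 ± 0.036 (SE; edgeR adjusted p = 0.0123) was lost without non-CSC replicate 2 (adjusted p = 0.113), without CSC replicate 1 (adjusted p = 0.0680) and with no filter on low counts (adjusted p = 0.0824).

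The kinases of this group were lower or did not pass the test. Cdk1, the kinase that the mitotic cyclins activate, fell by 0.23, Aurka, which matures the centrosomes and the spindle poles, by 0.31, and Nek2, a kinase that splits the centrosomes, by 0.20 on the log2 scale. Foxm1, the transcription factor of the mitotic wave, fell by 0.24, from 183 ± 4.61 to 155 ± 8.59 CPM (SD, n = 3 each). Plk1, the Polo-like kinase, stood at 114, 111 and 110 CPM in non-CSC and 114, 101 and 104.9 CPM in CSC, with overlapping groups (log2 fold change -0.07, edgeR adjusted p = 0.146). It passed as lower without CSC replicate 1 (adjusted p = 0.0104) and with no filter on low counts (adjusted p = 0.0446). Cks2, a small subunit that binds Cdk1, was at 35.5 ± 1.77 CPM in non-CSC and 35.5 ± 0.671 CPM in CSC (SD, n = 3 each). The standard error of its log2 fold change was 0.050, which bounds the precision of that comparison.

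The 4 genes of the chromosomal passenger complex were all lower in CSC, with a median of -0.44. This complex of the Aurora B kinase, its scaffold INCENP, survivin (Birc5) and borealin (Cdca8) corrects faulty spindle attachments at the centromere and later moves to the midzone. Cdca8 had 117, 109 and 104 CPM in non-CSC and 77.9, 73.6 and 68.98 CPM in CSC, a log2 fold change of -0.58 ± 0.048 (SE; edgeR adjusted p = 8.22e-10). Incenp had 186, 175 and 172 CPM in non-CSC and 131, 129 and 128 CPM in CSC, a log2 fold change of -0.46 ± 0.038 (SE; edgeR adjusted p = 2.29e-10). The lowest non-CSC library was above the highest CSC library for each of the 4. Birc5 fell by 0.43 and Aurkb by 0.34 on the log2 scale.

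The 5 spindle checkpoint genes split in 2 directions. Bub1b, Ttk and Bub1 were lower in CSC (60.0%), while Mad2l1 and Bub3 were higher (40.0%). Of all genes tested, 33.1% were called lower and 33.4% higher, so a share of risers near this size is common. Bub1b encodes BubR1, a part of the mitotic checkpoint complex that inhibits the anaphase-promoting complex. Its level was 118, 110 and 116 CPM in non-CSC and 73.2, 72.6 and 75.9 CPM in CSC (log2 fold change -0.63 ± 0.040 SE; edgeR adjusted p = 2.08e-12). Mad2l1 encodes Mad2, which is in the same complex, and had 87.2, 84.7 and 91.1 CPM in non-CSC and 128, 126 and 121 CPM in CSC (log2 fold change 0.51 ± 0.039 SE; edgeR adjusted p = 6.91e-11). Neither gene's groups overlapped. Bub3, the partner that brings BubR1 and Bub1 to kinetochores, had 175, 164 and 155 CPM in non-CSC and 204, 215 and 194 CPM in CSC, a rise of 0.31 ± 0.045 (SE; edgeR adjusted p = 4.49e-06). Ttk, the kinase known as MPS1 that starts checkpoint signalling, had 45.4, 41.7 and 42.9 CPM in non-CSC and 32.8, 31.0 and 31.7 CPM in CSC, a log2 fold change of -0.44. Bub1, a checkpoint kinase, fell by 0.30 on the log2 scale. The summed level of the 5 genes was 462 to 482 CPM in non-CSC and 471 to 493 CPM in CSC.

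Kinetochore and centromere members were divided as well, 4 lower, 2 higher and 1 not called, with a median of -0.11. That is 57.1% lower and 28.6% higher, beside 33.1% and 33.4% of all genes tested. Cenpe, a kinesin that carries chromosomes to the spindle equator, had 142, 156 and 159 CPM in non-CSC and 109, 99.1 and 107 CPM in CSC (log2 fold change -0.54 ± 0.045 SE; edgeR adjusted p = 7.26e-10). Cenpf, a large kinetochore and microtubule protein, fell by 0.43 on the log2 scale. Cenpa, the histone H3 variant of centromeres, had a log2 fold change of -0.11 (edgeR adjusted p = 0.0397). That call was lost without non-CSC replicate 3 (adjusted p = 0.127), without CSC replicate 1 (adjusted p = 0.0713) and without CSC replicate 3 (adjusted p = 0.169). It was also lost with upper-quartile scaling (adjusted p = 0.337), library-size scaling (adjusted p = 0.418), a filter at a mean of 50 counts (adjusted p = 0.130) and DESeq2 (adjusted p = 0.0620).

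The 4 subunits of the NDC80 complex, the rod that grips microtubules, did not move together. Spc25 had 23.6, 23.0 and 25.7 CPM in non-CSC and 29.5, 32.0 and 31.5 CPM in CSC, a log2 fold change of 0.36 ± 0.056 (SE; edgeR adjusted p = 5.50e-06). Its dimer partner Spc24 had 17.1, 19.3 and 17.4 CPM in non-CSC and 14.0, 12.5 and 12.4 CPM in CSC, a log2 fold change of -0.47 ± 0.069 (SE; edgeR adjusted p = 2.58e-06). Both pairs of groups were without overlap. Nuf2 rose from 54.8, 55.2 and 56.8 CPM to 68.2, 73.8 and 71.6 CPM (log2 fold change 0.36 ± 0.043 SE; edgeR adjusted p = 1.43e-07). Ndc80, the partner of Nuf2, stood at 40.2, 42.98 and 41.1 CPM in non-CSC and 39.7, 41.9 and 40.7 CPM in CSC, with overlapping groups (log2 fold change -0.02 ± 0.047 SE; edgeR adjusted p = 0.675).

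Ratios of counts between 2 genes in the same library, in which library scaling cancels, show how unlike partners were. The 12 pairs were chosen after their values were seen and are given with no test. In each pair the gene with the lower log2 fold change is the numerator, so every ratio is lower in CSC by that choice. Bub1b over Mad2l1 was 1.36, 1.30 and 1.27 in non-CSC and 0.570, 0.578 and 0.628 in CSC. Spc24 over Spc25 was 0.724, 0.840 and 0.677 in non-CSC and 0.474, 0.390 and 0.395 in CSC. These are the pairs with the opposite changes named above. Ccna2 over Ccnb1 was 1.31, 1.42 and 1.36 in non-CSC and 0.770, 0.807 and 0.773 in CSC, so that cyclin A2 had more counts than cyclin B1 in the 3 non-CSC libraries and fewer in the 3 CSC libraries. Ndc80 over Nuf2 went from 0.745 ± 0.029 to 0.573 ± 0.0082 (SD, n = 3 each). By contrast, Kif23 over Racgap1, the pair of the centralspindlin complex, went only from 0.338 ± 0.018 to 0.297 ± 0.0055 (SD, n = 3 each).

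**Figure D3:**
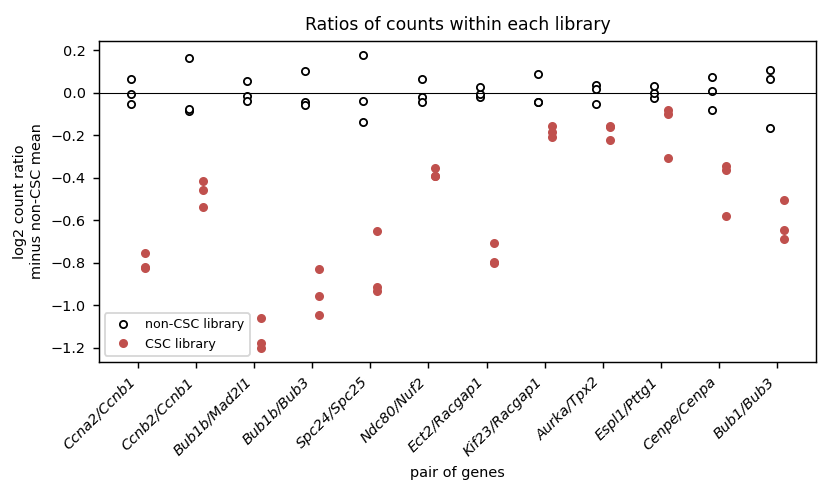
Ratio of counts between 2 genes within each library, as log2 ratio minus the mean of the non-CSC libraries, for 12 pairs (open points, non-CSC; filled points, CSC; 3 libraries each). The mean shift runs from -0.16 (Espl1 over Pttg1) to -1.15 (Bub1b over Mad2l1). All shifts are negative because the gene with the lower log2 fold change is the numerator of each pair.

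Of the 4 genes of the metaphase to anaphase step, 3 were called lower and none higher, with a median of -0.19. Espl1, the separase that cleaves cohesin, had 115, 112 and 115 CPM in non-CSC and 95.7, 89.1 and 98.3 CPM in CSC (log2 fold change -0.28 ± 0.040 SE; edgeR adjusted p = 2.03e-06). Ube2c, the ubiquitin-conjugating enzyme of the anaphase-promoting complex, had 141, 171 and 151 CPM in non-CSC and 142, 122 and 123 CPM in CSC. Its groups overlapped, and the difference of -0.26 ± 0.092 (SE; edgeR adjusted p = 0.0453) was lost without non-CSC replicate 3 (adjusted p = 0.111), without CSC replicate 2 (adjusted p = 0.137), without CSC replicate 3 (adjusted p = 0.108) and with a replicate block (adjusted p = 0.132). Pttg1, which encodes securin, the inhibitor of separase, had a log2 fold change of -0.11 (edgeR adjusted p = 0.0159), lost without CSC replicate 3 (adjusted p = 0.0587). With upper-quartile scaling, library-size scaling and a filter at a mean of 50 counts, Ube2c (adjusted p = 0.104, 0.0785 and 0.0804) and Pttg1 (adjusted p = 0.240, 0.317 and 0.0752) lost their calls too. Cdc20, the activator that the checkpoint restrains, stood at 160 ± 7.96 CPM in non-CSC and 151 ± 4.45 CPM in CSC (SD, n = 3 each; edgeR adjusted p = 0.076). It passed as lower without non-CSC replicate 3 (adjusted p = 0.0182), without CSC replicate 2 (adjusted p = 0.0456) and with no filter on low counts (adjusted p = 0.0160).

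Among spindle motors and microtubule factors, 4 of 6 were lower and 1 was higher, with a median of -0.13. Kif11, the Eg5 motor that pushes the spindle poles apart, had 167, 174 and 179 CPM in non-CSC and 116, 125 and 127 CPM in CSC (log2 fold change -0.50 ± 0.041 SE; edgeR adjusted p = 1.99e-10). Kif4, a chromosome-bound motor, rose from 49.8, 51.5 and 49.99 CPM to 61.1, 58.6 and 61.1 CPM (log2 fold change 0.26 ± 0.043 SE; edgeR adjusted p = 1.33e-05). These 2 motors were the only members of the group with a change over 0.2. Kif2c, which shortens microtubules at centromeres, and Tpx2, the activator of Aurora A, fell by 0.13 and 0.12 on the log2 scale, calls that upper-quartile scaling and library-size scaling each ended. Hmmr, a spindle pole protein, had 71.1, 80.7 and 84.4 CPM in non-CSC and 68.6, 73.4 and 70.2 CPM in CSC. Its groups overlapped, and the difference of -0.16 (edgeR adjusted p = 0.0151) was lost without non-CSC replicate 2 (adjusted p = 0.0568), without non-CSC replicate 3 (adjusted p = 0.0753) and without CSC replicate 1 (adjusted p = 0.0546). It was also lost with upper-quartile scaling (adjusted p = 0.118), library-size scaling (adjusted p = 0.158) and a filter at a mean of 50 counts (adjusted p = 0.0559). Nusap1, which bundles spindle microtubules, was not called (log2 fold change 0.08, edgeR adjusted p = 0.124), but passed as higher in 6 of the 17 alternatives. These were leaving out CSC replicate 1 (adjusted p = 0.0381), upper-quartile scaling (0.00940), library-size scaling (0.00834), a filter at a mean of 50 counts (0.0322) and the neighbourhood offsets described below (0.00345 and 0.00417).

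Of the 7 cytokinesis genes, 5 were lower and none was higher, with a median of -0.23. Ect2, the exchange factor that activates RhoA at the cleavage furrow, was the member with the largest fall. It had 123, 128 and 130 CPM in non-CSC and 73.6, 74.7 and 80.9 CPM in CSC, a log2 fold change of -0.74 ± 0.041 (SE; edgeR adjusted p = 2.53e-13). Prc1, which bundles the microtubules of the central spindle, had 177, 185 and 181 CPM in non-CSC and 129, 132 and 131 CPM in CSC (log2 fold change -0.47 ± 0.035 SE; edgeR adjusted p = 5.79e-11). Kif20b, a kinesin of late cytokinesis, fell by 0.38, Anln, the ring scaffold anillin, by 0.23, and Kif23, a centralspindlin motor, by 0.15 on the log2 scale. The call of Kif23 was lost with library-size scaling (edgeR adjusted p = 0.0661). Racgap1, the centralspindlin subunit that binds Ect2, was at 256 ± 3.96 CPM in non-CSC and 261 ± 4.22 CPM in CSC (SD, n = 3 each; edgeR adjusted p = 0.434), and passed as higher with upper-quartile (adjusted p = 0.0263) and library-size scaling (adjusted p = 0.0188). Ect2 over Racgap1 was 0.490, 0.496 and 0.507 in non-CSC and 0.286, 0.286 and 0.305 in CSC. Kif20a, a kinesin of the central spindle, was not called (log2 fold change -0.07, edgeR adjusted p = 0.112), but passed as lower with no filter on low counts (adjusted p = 0.0478).

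Top2a, the topoisomerase that untangles sister chromatids, had the highest level per length of the members. Levels per kilobase of the longest protein-coding transcript (RPKM) were 174 for Top2a in non-CSC, followed by 90.6 for Aurka and 89.1 for Cdc20, and were lowest for Kif4 (10.1) and Spc24 (10.6). Top2a had 888, 913 and 928 CPM in non-CSC and 613, 611 and 628 CPM in CSC. Its groups were far apart beside their spread, with a log2 fold change of -0.56 ± 0.034 (SE; edgeR adjusted p = 1.003e-12).

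Part of the members lie in stretches of chromosome whose other genes moved the same way. For each member, the median log2 fold change was taken of the 30 neighbouring protein-coding genes with a mean of at least 5 CPM, fewer at a chromosome end. It was below -0.25 for 5 members, and the share of all genes tested below that bound is not given here. Ccna2 on chromosome 3 had a neighbour median of -0.61, Kif20b and Kif11 on chromosome 19 had -0.51 and -0.46, Ect2 on chromosome 3 had -0.33 and Cenpe on chromosome 3 had -0.28. Kif4 on the X chromosome, a riser, had 0.32. The neighbours of Bub1b (-0.02), Cdca8 (-0.0040), Top2a (0.06), Cenpf (0.10), Birc5 (0.09) and Mad2l1 (0.01) were close to the median of all genes. Across the 43 members, Pearson's r between a gene's change and that of its neighbours was 0.49, a description over genes that share the same 6 libraries.

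**Figure D4:**
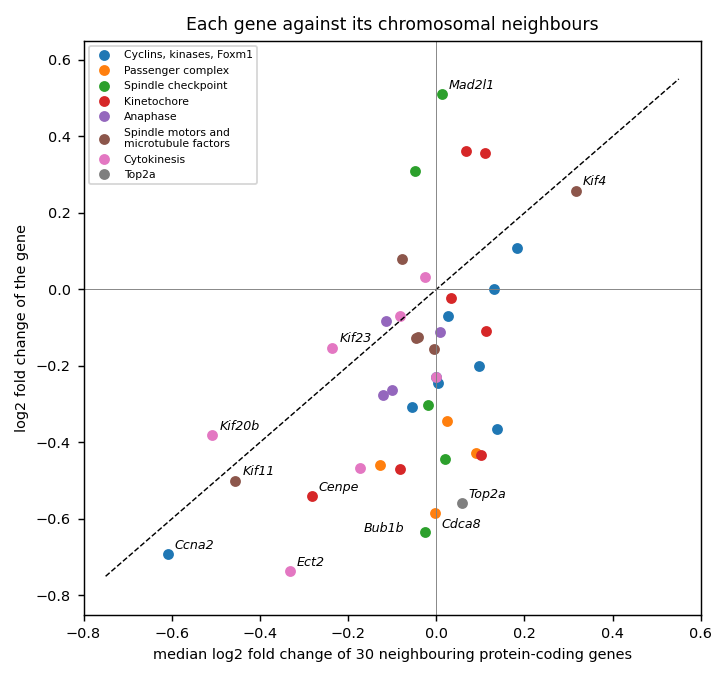
Log2 fold change of each of the 43 genes (y axis) against the median of its 30 neighbouring protein-coding genes (x axis), coloured by role, with a dashed line of equality. Ccna2, Kif11, Kif20b and Kif4 lie near the line, while Bub1b, Cdca8, Top2a and Mad2l1 lie far from it at neighbour medians near 0.

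When the change of the neighbours was taken off each gene in the fit, an alternative chosen after the data were seen, 25 of the 30 lower members and 4 of the 6 higher members kept their call. With this offset 28.7% of all genes tested were called lower and 36.7% higher. Bub1b stayed at -0.61, Top2a at -0.62, Cdca8 at -0.58, Cenpf at -0.53 and Birc5 at -0.52 on the log2 scale, and Mad2l1 at 0.50 and Bub3 at 0.36. The neighbour medians of these genes lay between -0.05 (Bub3) and 0.10 (Cenpf), so the offset could move their values little. That they kept their calls is therefore no test of them. Ccna2 was reduced to -0.08 (edgeR adjusted p = 0.0498) and Ect2 to -0.40. Kif11 lost its call (-0.04, adjusted p = 0.349), Kif4 and Ccnb1 turned to -0.06 and -0.08 without passing the test (adjusted p = 0.234 and 0.0683), and Kif20b turned to 0.13 (adjusted p = 0.0237). Of the 7 cytokinesis genes, the median went from -0.23 to 0.01 with this offset, while that of the kinetochore genes went from -0.11 to -0.22. Kif23 (0.08, adjusted p = 0.0736), Kif2c (-0.08, adjusted p = 0.0630) and Ube2c (-0.16, adjusted p = 0.175) lost their calls, and Plk1 (-0.10, adjusted p = 0.0472) and Cks2 (-0.13, adjusted p = 0.0252) passed as lower. With all 30 tested neighbours in place of the protein-coding ones, Kif11 kept its call (-0.12, edgeR adjusted p = 0.0101), while Foxm1 (0.0034, adjusted p = 0.946), Nuf2 (0.03, adjusted p = 0.585), Tpx2 (-0.06, adjusted p = 0.144) and Kif20b (-0.02, adjusted p = 0.730) lost it. Of the others, Kif4 (-0.14, adjusted p = 0.00609) and Ccnb1 (-0.09, adjusted p = 0.0398) passed as lower and Kif23 (0.09, adjusted p = 0.0487) as higher, each against its direction without the offset. What moved these stretches was not tested.

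Some levels are uncertain because reads can be shared between genes. No source used here gives the counting tool or its strand setting, so reads from bases that 2 genes share cannot be told apart. Ccnb1 shares 42.1% of the 50-base words of its longest transcript with transcripts of other genes. It shares the most with its pseudogene Ccnb1-ps, which was counted at 4.64 CPM in non-CSC and 3.94 CPM in CSC. Cks2 shares 29.7%, the most with Gm15452, at 3.34 and 2.82 CPM. Kif20a shares 31.2% with other genes in all, Prc1 26.6%, Kif4 16.2% and Ccna2 15.9%. The genes that share the most words with them are, in turn, Cdc23, Rccd1, Pdzd11 and Exosc9, which overlap them on the opposite strand. The log2 fold changes of these partners were -0.45 for Rccd1, -0.52 for Exosc9, 0.19 for Pdzd11 and -0.13 for Cdc23, each of the same sign as that of the member it overlaps. Ube2c shares 17.8%, the most with Tnnc2, also on the opposite strand, which had 1.89 CPM in non-CSC and 0.752 CPM in CSC. For 18 of the 43 members no word was shared.

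Other genes of mitosis, 159 in 9 lists, moved in both directions, 58 higher (36.5%) and 67 lower (42.1%), with a median of -0.01. Of all genes tested, 33.4% were called higher and 33.1% lower, and the counts of each list below are to be read beside those shares. Genes of the CENP proteins of the inner kinetochore and centromere and of their loading factors were mostly higher, with 13 of 20 called higher and 4 lower, at a median of 0.20. Cenpm and Cenpl rose by 0.53 and 0.50, while Hjurp, the chaperone that deposits CENP-A, fell by 0.26 on the log2 scale. The list of other outer kinetochore genes, which also holds Cdca2, a gene outside that structure, had 8 of 17 lower and 4 higher. Ska2 fell by 0.48 and Cdca2 by 0.43, while the checkpoint gene Mad1l1 rose by 0.40 and Spdl1 by 0.36. Condensin and cohesin genes included 11 of 21 lower and 6 higher. Smc4, the condensin core subunit, fell from 217 ± 9.27 to 118 ± 2.80 CPM (SD, n = 3 each; log2 fold change -0.87), and Cdca5, which encodes sororin, by 0.49, while Sgo2a and Smc1a rose by 0.44 and 0.27.

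Subunits and regulators of the anaphase-promoting complex included 8 of 17 lower and 3 higher, with Anapc5 and Anapc7 falling by 0.71 and 0.69 and Anapc13 and Cdc27 rising by 0.62 and 0.10 on the log2 scale. Mitotic entry genes included 8 of 15 lower and 5 higher. Pkmyt1, a kinase that restrains Cdk1, fell by 0.52 and the opposing phosphatase gene Cdc25c by 0.37, while Arpp19 and Gtse1 rose by 0.47 and 0.39. Other spindle genes were split, 13 of 32 higher (40.6%) and 11 lower (34.4%), beside 33.4% and 33.1% of all genes tested. Dlgap5 and Haus8 had log2 fold changes of -0.67 and -0.55, and the gamma-tubulin gene Tubg1 and Tacc1 rose by 0.47 and 0.40. Centrosome genes included 5 of 12 higher and 4 lower, among them Plk4, the kinase that starts centriole duplication, which fell from 81.6 ± 1.92 to 44.5 ± 0.826 CPM (SD, n = 3 each; log2 fold change -0.87), Nedd1, which fell by 0.40, and Cep63 and Cep135, which rose by 0.34 and 0.30. Abscission genes included 8 of 13 lower and 4 higher, with Cep55 and Chmp4c falling by 0.70 and 0.60 and Vps4b and Zfyve19 rising by 0.32 and 0.28 on the log2 scale.

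**Figure D5:**
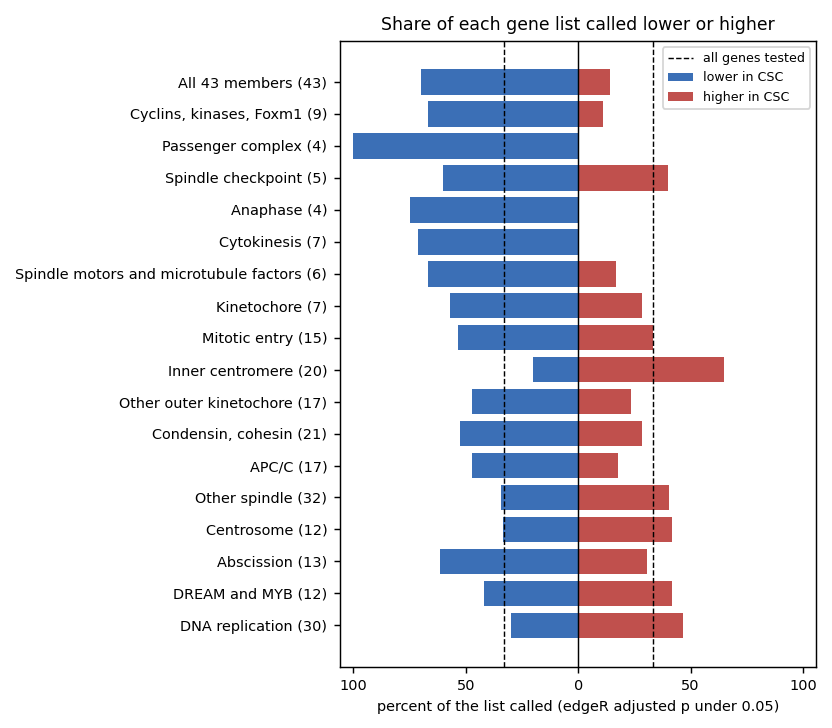
Percent of each gene list called lower (bars to the left) or higher (bars to the right) in CSC, with the number of genes tested in brackets and dashed lines at the percent of all genes tested (33.1% lower, 33.4% higher). All 43 members stand at 69.8% lower and 14.0% higher. The list labelled inner centromere, which holds the CENP genes of the inner kinetochore, has the largest share called higher (13 of 20).

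Of the 18 lower genes that the naming rule picks in the other mitosis lists, 9 had neighbour medians below -0.25, against 0 of the 18 higher genes. Among them were Plk4 (-0.58), Cep55 (-0.45), Cdca5 (-0.38), Anapc7 (-0.36), Chmp4c (-0.35), Smc4 (-0.32) and Anapc5 (-0.29). The part of these neighbourhoods in the falls was not tested. The rule picks the largest changes in each direction, and the share of all genes tested below that bound is not given here. High neighbourhoods were not counted. Among the higher genes, Vps4b and Tfdp1 had neighbour medians of 0.32 and 0.24. Genes of the DREAM and MYB-MuvB complexes, which hold down or raise mitotic transcription, included 5 of 12 lower and 5 higher. That is 41.7% each, beside 33.1% and 33.4% of all genes tested. E2f4, a repressor subunit, fell from 131 ± 4.52 to 73.4 ± 3.12 CPM (SD, n = 3 each, log2 fold change -0.83) at a neighbour median of 0.04. E2f5 fell by 0.57 at a neighbour median of -0.35, while Tfdp1 and Tfdp2 rose by 0.41 and 0.40. DNA replication genes, which act in the preceding S phase, had 14 of 30 members higher and 9 lower, their median being 0.10. Ccne1 and Tyms rose by 0.77 and 0.66, and Rfc2 and Pola2 fell by 0.43 and 0.40 on the log2 scale. The difference between the replication and mitosis genes was not tested.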

How the data were processed

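RNA was sequenced from EO771 cells in 3 CSC and 3 non-CSC libraries. The authors deposited a single table of unnormalized counts by gene symbol; the build was GRCm38 per the submitters' processing notes, and no source used here gives the aligner, counter, annotation, strand setting or filters. All 6 value columns were matched to samples by group and replicate number. From the counts, 17630 genes passed edgeR's filterByExpr and were scaled by TMM; CSC was compared with non-CSC by edgeR 4.0.16's quasi-likelihood test (robust, no covariate; R 4.3.3) with Benjamini-Hochberg adjustment at 0.05. A standard error is the log2 fold change divided by the square root of F. The common biological coefficient of variation was 4.11%, so small differences passed. CPM uses TMM-scaled library sizes. The method was tested on simulated counts.

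The members and lists were chosen with earlier results of these data known. Values in every library are given for up to 2 members in each direction of each role group, those with the largest changes among genes called with a mean of at least 5 CPM; of other lists, up to 2 genes in each direction. Other members with values per library (Plk1, Ndc80) were chosen after their values were seen, as were the ratio pairs and printed promoters. Alternatives were RLE, upper-quartile and library-size scaling, 2 other filters, DESeq2 1.42.0, limma-voom (limma 3.58.1), the robust setting off, a replicate block, leaving out each library, and neighbourhood offsets. Positions came from RefSeq GRCm38.p6, transcripts from GENCODE M21. One gene that this rule names in the other lists is not reported here.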

Additional observations from a re-analysis of the deposited data

How the results depend on the processing

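Under the alternatives the number of members called lower was 23 to 33 and called higher 5 to 8, and the median over the 43 members was negative in each. With upper-quartile scaling it was -0.17, with medians of -0.17 for cyclins and kinases, -0.39 for the passenger complex, -0.24 for the checkpoint, -0.13 for anaphase, -0.17 for cytokinesis, -0.068 for spindle motors and -0.051 for the kinetochore. With library-size scaling these were -0.16, -0.16, -0.38, -0.24, -0.12, -0.16, -0.060 and -0.044; the 2 scalings moved the median of all genes to 0.07 and 0.08. Without a filter the medians of all members and of spindle motors were -0.26 and -0.15. With a filter at a mean of 50 counts, all members had -0.20, anaphase -0.16, cytokinesis -0.20 and spindle motors -0.095. With the offset for all 30 tested neighbours, all members had -0.19, cytokinesis -0.020 and the kinetochore -0.24; with that for protein-coding neighbours, -0.15, 0.014 and -0.22, with anaphase at -0.14 and spindle motors at -0.070. Leaving out each library gave -0.26 to -0.22 for all members and -0.20 to -0.16 for anaphase.

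Signs turned for Cks2 with RLE scaling (-0.0055), no filter (-0.025), DESeq2 (-0.0054), left-out libraries (-0.048 to 0.029) and both offsets (-3.50 and -0.13), and for Ndc80 with upper-quartile (0.035) and library-size scaling (0.043) and the 50-count filter (0.0081). With the offset for all tested neighbours they turned for Ccnb1 (-0.087), Kif23 (0.092), Kif4 (-0.14) and Foxm1 (0.0034), and with protein-coding neighbours for Ccnb1 (-0.076), Kif23 (0.083), Kif4 (-0.059), Cdc20 (0.032), Kif20a (0.014) and Kif20b (0.13). The causes were not tested.

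The replicate numbers did not pair the libraries: deviations of same-numbered libraries correlated at -0.011, -0.026 and -0.022, and 0 of the 3 CSC libraries correlated best with its own number. A replicate block gave 29 lower and 6 higher members.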

Other observations

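The neighbourhood of Cks2 stands out from those of the other members. Cks2 itself did not differ between the groups beyond its spread, but the median log2 fold change of its 30 tested neighbours was 3.50, against 0.13 for its protein-coding neighbours with a mean of at least 5 CPM. Of the 15 tested genes on one side, 12 on chromosome 13 between 50164582 and 50765248 (GRCm38.p6), none of them protein-coding, had means of 0 to 0.0286 CPM in non-CSC and 0.389 to 5.25 CPM in CSC. At those means they passed the low-count filter only through the CSC libraries. Being higher in CSC was thus a condition of their entry as tested neighbours, and the median of 3.50 rests in part on them. Read sharing among the 12 was not checked. These genes were chosen after their values were seen.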
